A study of Junonia coenia with 38 samples.

Results

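The step from the 5th larval instar to the prepupa was compared in the wings of the buckeye butterfly Junonia coenia. It rests on the 12 wing libraries with these stage codes, of 24 wing libraries with counts and 38 libraries in the series. They form 4 groups of 3: forewing and hindwing of 5th instar caterpillars, and forewing and hindwing of prepupae. All animals were reared near 27C, and the labels give no strain, sex, exact age or treatment. Whole wings were used and poly-A RNA was sequenced. Whether a library holds 1 animal or several is not stated, nor is it stated that the replicates came from separate animals. The p-values thus measure a spread between libraries that may be technical. This spread was estimated from all 24 wing libraries, pupal ones included, and not from the 12 alone. Libraries of the same number varied together between the wings of a stage, so the hindwing is not an independent repeat of the forewing.

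The wings of butterflies grow inside the caterpillar as imaginal discs, which are folded sacs of epithelium with tracheae and blood cells attached. Late in the last larval instar the animal stops feeding, a rise of the moulting hormone ecdysone starts the prepupal stage, and the discs evert, spread and begin to secrete pupal cuticle. Forewing and hindwing share most of this programme, and the selector gene Ultrabithorax sets the hindwing apart.

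The deposited counts are listed by gene model without any gene name. Each model is therefore given as contig:first-last, with positions counted from 1 as the table lists them, on an assembly whose build is not given in the sources used here. No function, exon or untranslated region could be assigned, no marker of wing or of other cell types could be looked up, and the labelled tissue was not checked by markers. Total counts ran from 8678215 to 21284939 in the larval libraries and from 9282023 to 15256236 in the prepupal libraries. Of 19234 models on 811 contigs, 13282 had enough counts to be tested. Levels below are CPM from edgeR, in which each count is divided by the total of its library and by the TMM factor of that library, with mean ± SD of 3 libraries. Changes are log2 fold changes of the prepupa over the 5th instar with their standard error (SE), and adjusted p-values are from edgeR's quasi-likelihood test with Benjamini-Hochberg adjustment over all 13282 models. A model is said to have risen or fallen, or to be called, when its adjusted p was below 0.05.

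The prepupal libraries were concentrated in far fewer models than the larval ones. In the larval forewing 404, 425 and 401 models held 50% of the counts of a library (410.0 ± 13.1), and in the prepupal forewing 60, 67 and 83 did (70.0 ± 11.8). In the hindwing the same number was 488, 438 and 460 in the larva (462 ± 25.1) and 115, 136 and 179 in the prepupa (143.3 ± 32.6). No library of one stage overlapped the other, and the exact two-sided permutation p was 0.1 in each wing, the smallest that 3 against 3 can give. The 100 largest models took 29.8% ± 0.27 of the larval and 55.1% ± 2.28 of the prepupal forewing counts, and 27.8% ± 0.86 and 44.6% ± 3.53 of the hindwing counts. Models at 1 CPM or more, without TMM scaling, numbered 11325 ± 81.6 and 10042 ± 175 in the larval and prepupal forewing, and 11454 ± 34.0 and 10820 ± 167 in the hindwing. In whole wings, fewer cells of a type and less RNA per cell cannot be told apart in any of these values.

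**Figure D1:**
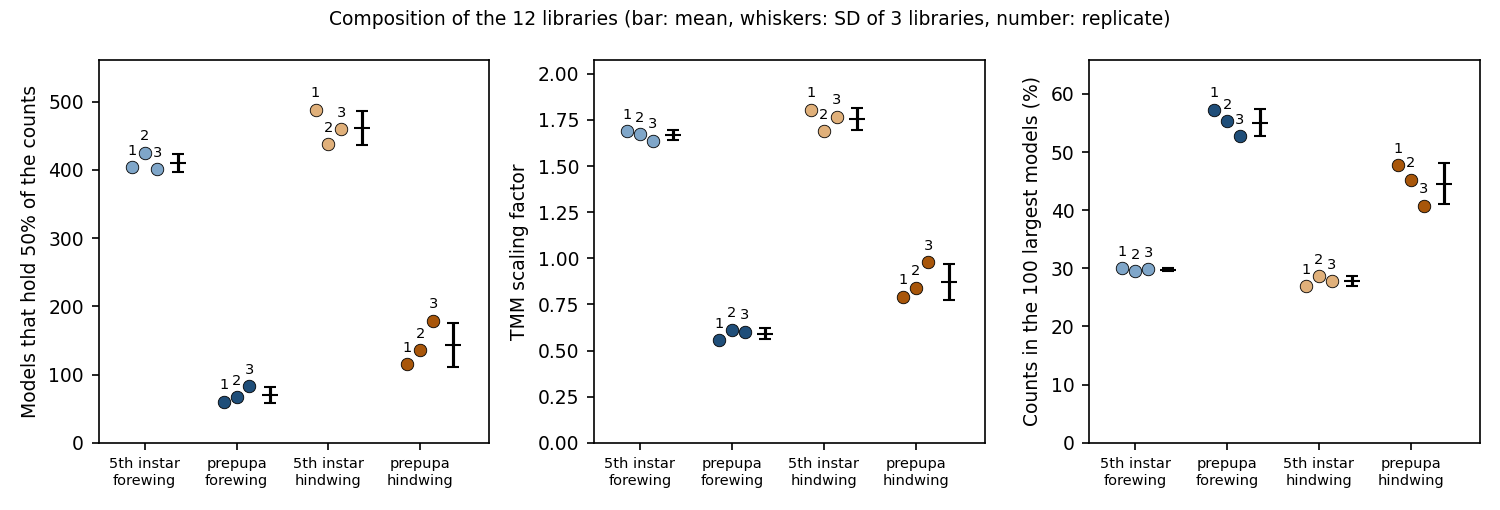
Points show each of the 12 libraries with its replicate number, and bars with whiskers the mean and SD of 3. From left to right the vertical axes are the number of models that hold 50% of a library's counts, the TMM scaling factor, and the share of counts in the 100 largest models. Prepupal libraries need 60 to 179 models for 50% of their counts, larval libraries 401 to 488.

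This concentration bears on every direction given below. The TMM factors averaged 1.67 and 1.75 for larval forewings and hindwings, against 0.590 and 0.870 for prepupal ones, so scaling lifts prepupal values relative to larval ones. With it, the median log2 change over all tested models was -0.16 in the forewing and -0.14 in the hindwing. With library totals alone it was -1.65 and -1.15. Each change is thus relative to the bulk of the models, and the data do not show whether the RNA of the average model changed per cell.

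The step changed 40.4% of all tested models in both wings. In the forewing 7416 models were called, which is 55.8% of those tested: 3448 rose (26.0%) and 3968 fell (29.9%). In the hindwing 6084 were called (45.8%), of which 2837 rose (21.4%) and 3247 fell (24.4%). The CPM of the stages did not overlap for 65.2% of tested models in the forewing and 59.0% in the hindwing. Scaled by library totals alone, the split turned to 1451 higher and 8711 lower in the forewing, and to 1493 and 7768 in the hindwing. A change of more than 2-fold was shown (edgeR's glmTreat, adjusted p below 0.05) for 3747 models in the forewing (28.2%), of which 2056 rose (15.5%) and 1691 fell (12.7%). It was shown for 2583 in the hindwing (19.4%), of which 1595 rose (12.0%) and 988 fell (7.44%). With library totals alone the balance turned to falls, at 1077 rises and 6828 falls in the forewing and 1079 and 4438 in the hindwing.

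Both wings shared most of their calls. The models that rose in both numbered 2559 (19.3% of tested), which is 74.2% of the forewing list and 90.2% of the hindwing list. Those that fell in both numbered 2812 (21.2%), or 70.9% and 86.6% of the lists. Together they make 5371 models (40.4%). With library totals alone 1202 rose and 7501 fell in both, and with DESeq2 size factors 2867 and 2273, so which direction was the more frequent depends on the scaling. A change of more than 2-fold in the same direction was shown in both wings for 2269 models (17.1%), of which 1449 rose (10.9%) and 820 fell (6.17%). Among the 2031 models called in the forewing alone, the hindwing value had the same sign in 1865. For the 699 called in the hindwing alone, the forewing value had the same sign in 617. Across all 13282 models the log2 changes of the wings correlated with r = 0.913, as a description across genes, which are not independent, in libraries whose numbers pair the wings. The sign was the same in 87.7% of them.

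The libraries of each stage show what these calls amount to as shares of the counts, given as a description since the models were chosen on the same libraries. The models that rose in both wings held 27.2% ± 0.445 of the larval and 78.8% ± 0.866 of the prepupal forewing counts, and 26.1% ± 1.11 and 69.9% ± 2.98 of the hindwing counts. Those that fell in both held 26.5% ± 0.515 and 3.19% ± 0.321 in the forewing, and 27.3% ± 0.899 and 5.63% ± 0.893 in the hindwing. A set of 965 models that rose at least 8-fold in both wings went from 1.16% to 55.9% of the forewing counts and from 1.26% to 41.7% of the hindwing counts. The 235 that fell at least 8-fold in both went from 2.96% to 0.049% and from 3.16% to 0.0744%.

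Rises and falls were distributed differently by size. Over all tested models the median absolute log2 change was 1.08 in the forewing (2.12-fold) and 0.81 in the hindwing (1.75-fold), and 95% of models lay below 5.24 and 4.83. Called rises had a median log2 change of 2.19 in the forewing and 2.32 in the hindwing. Called falls were smaller, with medians of 1.47 and 1.25 in size. At 2-fold or more there were 2765 rises and 2983 falls in the forewing, and 2264 and 2006 in the hindwing. The balance then tipped with size: at 8-fold or more the forewing had 1264 rises and 421 falls (75.0% rises), and the hindwing 1110 and 322 (77.5%). At 32-fold or more the forewing had 644 and 73 (89.8%), against 550 and 69 in the hindwing (88.9%). At 256-fold or more the forewing had 260 rises and 2 falls, and the hindwing 169 and 5. Changes of 32-fold or more in both wings numbered 471 rises and 35 falls, and of 256-fold or more 142 and 1. The counts of the largest falls rest on single libraries. Without prepupal forewing replicate 2 the forewing had 655 rises and 145 falls at 32-fold or more (81.9% rises), and 270 and 21 at 256-fold or more. In both wings there were then 44 falls of 32-fold or more and 5 of 256-fold or more. Hindwing falls of 256-fold or more numbered 12 without prepupal hindwing replicate 2 and 9 without replicate 3.

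**Figure D2:**
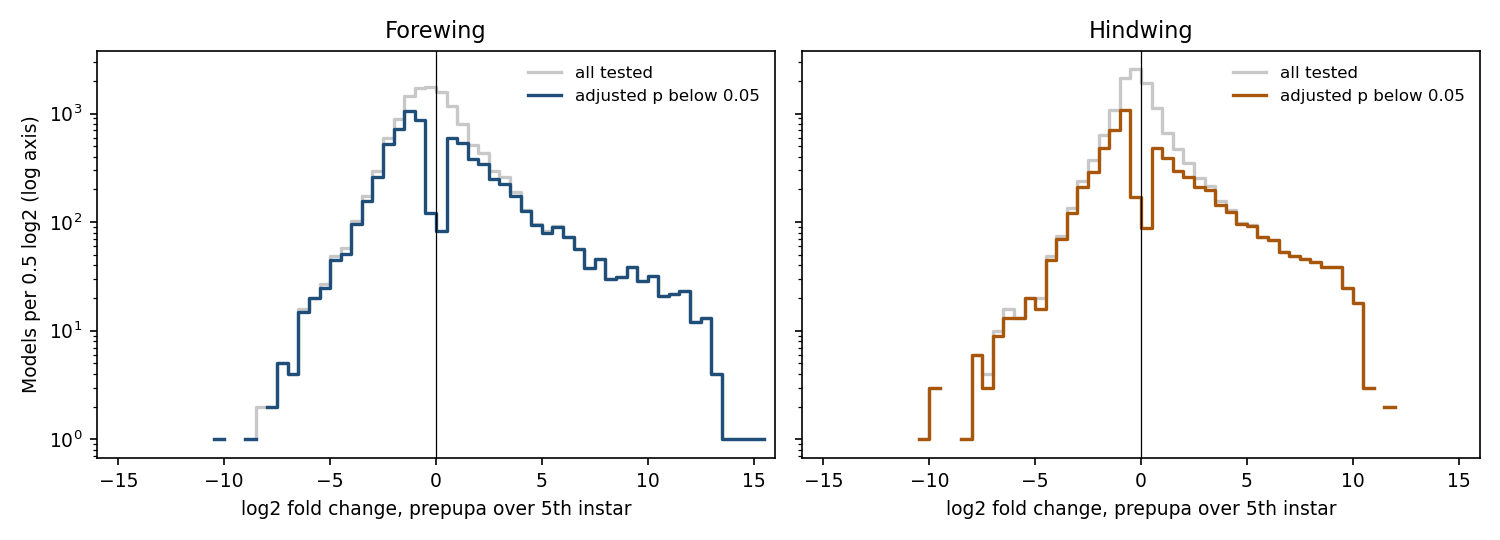
Histograms of the fitted log2 fold change of the prepupa over the 5th instar, in steps of 0.5, with the number of models on a log axis. Grey lines are all 13282 tested models and coloured lines those called. The right side reaches 15.02 in the forewing and 11.66 in the hindwing and holds most of the large changes.

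The share of rises among large changes depended on the scaling. Counting from the median of all models takes out, by construction, any shift that a scaling gives to all models alike, so values counted that way are a description and no check on the scaling. Counted from 0 with library totals alone, called rises made up 25.8% of the forewing and 45.2% of the hindwing changes of 8-fold or more, and 61.0% and 74.5% of those of 32-fold or more. Among the changes of 8-fold or more in both wings they then made up 43.0%, against 80.4% with TMM. Counted from the median over all tested models, higher models made up 78.1% and 80.2% of the changes of 8-fold or more with TMM, and 79.5% and 80.5% with library totals alone. With TMM and without the filter on low counts they made up 72.5% and 72.8%. Precision followed the level. In the class with a mean below 0 on the log2 CPM scale, the 2048 models had a median SE of 1.01 in the forewing, and 31.0% of them were called there. In the class of 6 to 9 the 1561 models had a median SE of 0.22, and 71.0% were called.

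**Figure D3:**
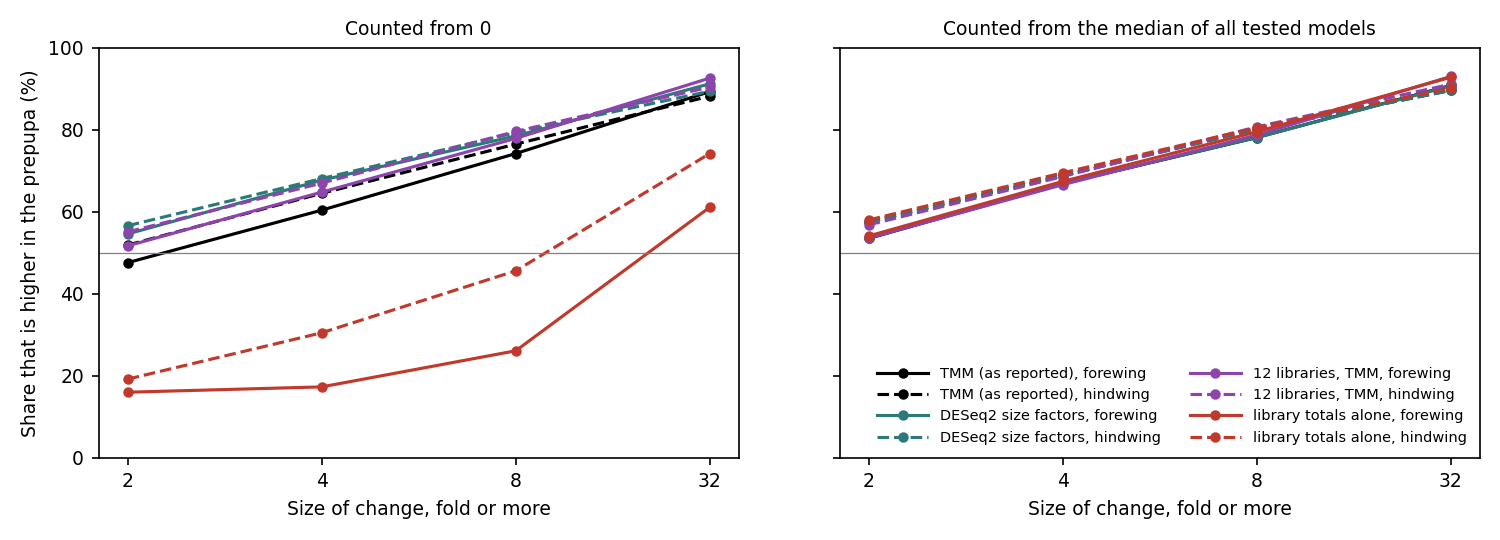
Share of models that were higher in the prepupa (vertical axis, %) among tested models whose change was at least the size on the horizontal axis. The sizes, from 2-fold to 32-fold, are drawn at even steps. Changes are counted from 0 on the left and from the median of all tested models on the right. Colours are scalings, solid lines the forewing and dashed lines the hindwing. The red lines of library totals alone lie apart on the left and fall on the others on the right, where a shift common to all models is removed by construction.

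Small changes were also called. In the forewing 1668 calls (22.5% of its calls) were below 2-fold, 683 of them rises and 985 falls. The hindwing had 1814 (29.8%), with 573 rises and 1241 falls. The smallest called change had a size of 0.28 in the forewing and 0.27 in the hindwing on the log2 scale. The typical shared change is shown by the models closest to the median of all shared models whose log2 CPM averaged at least 3 and whose stages did not overlap. Among 1536 such rising models the median of both wings was 1.94 (3.83-fold), and among 1739 falling ones it was -1.23 (2.34-fold). The model 000121F:1343261-1353701 stood at 4.64, 5.04 and 4.42 CPM in the larval forewing and at 27.5, 20.1 and 23.0 CPM in the prepupal one. In the hindwing it went from 4.32, 5.22 and 3.86 CPM to 13.6, 13.5 and 12.5 CPM. All prepupal libraries were above all larval ones, and the log2 change was 2.32 (SE 0.25, edgeR adjusted p = 2.93e-07) and 1.56 (SE 0.24, adjusted p = 4.1e-05). A typical fall was that of 000053F:566262-572661, at 24.4, 27.5 and 23.1 CPM in the larval and 8.13, 8.46 and 7.93 CPM in the prepupal forewing. Its hindwing values were 18.7, 19.6 and 20.9 CPM, then 10.3, 10.8 and 11.9 CPM. The stages did not overlap in either wing, and the log2 change was -1.61 (SE 0.17, edgeR adjusted p = 2.12e-07) and -0.84 (SE 0.16, adjusted p = 0.000359). The other near-median models were 000120F:83862-90116, at 2.17 and 1.69, and 000000F:4985708-4996544, which overlaps another model, at -1.41 and -1.04. The hindwing call of the first was lost without any of 5 single libraries (adjusted p from 0.051 to 0.148), and that of the second without larval hindwing replicate 1 (adjusted p = 0.0586).

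The 8 largest rises, ranked by the change averaged over the wings among shared models of at least 3 in average log2 CPM without overlap, went from a mean of 0.046 to 1.98 CPM in the larval forewing to 959 to 15033 CPM in the prepupal one. In the hindwing they went from 0.175 to 3.43 CPM up to 111 to 4775 CPM. Their log2 changes ran from 10.54 to 14.14 in the forewing (SE 1.33 to 2.40, edgeR adjusted p from 1.76e-07 to 6.12e-05). In the hindwing they ran from 8.77 to 11.63 (SE 1.14 to 1.98, adjusted p from 5.1e-06 to 0.000934). The difference between the wings was called for none of the 8 (edgeR adjusted p from 0.0781 to 0.923). With the replicate number of each stage as a block, its adjusted p ran from 0.00238 to 0.109. Their mean levels in the later wings were 0.629 to 19.2 CPM at 72 h after pupation and 0.878 to 154 CPM in late pupae, and these levels were not tested.

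The highest of them in the prepupal forewing was 000019F:2004960-2006024, a span of 1065 bases. It had 2.66, 3.16 and 0.115 CPM in the larval forewing and 13180.3, 9793 and 22126 CPM in the prepupal forewing. The hindwing had 0.447, 4.44 and 5.40 CPM, then 1965, 1399.9 and 1148 CPM. Every prepupal library was far above every larval one, and the forewing level exceeded the hindwing level in all 3 prepupal pairs. The fitted log2 change was 12.91 (SE 1.33, edgeR adjusted p = 1.76e-07) in the forewing and 8.77 (SE 1.14, adjusted p = 5.1e-06) in the hindwing, and the forewing value was 12.31 without larval forewing replicate 3.

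A higher prepupal level in the hindwing than in the forewing was found for 000249F:467758-470151. Its forewing values were 0.819, 2.29 and 0.0862 CPM in the larva and 584, 2370.2 and 1758 CPM in the prepupa. Its hindwing values were 0.298, 3.82 and 0.275 CPM, then 2901, 6927 and 4498 CPM. Both larval replicates 2 stood above the other larval libraries of their wing. On the log2 scale the change was 10.54 (SE 1.62, edgeR adjusted p = 2.15e-05) in the forewing and 11.63 (SE 1.68, adjusted p = 1.64e-05) in the hindwing, and the difference between the wings was not called (adjusted p = 0.923, and 0.109 with the replicate block). Without larval replicate 2 of the same wing the values were 11.92 and 13.96, and without larval forewing replicate 3 the forewing value was 9.94.

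The model 000248F:308529-318885 had 0.478, 2.43 and 0.144 CPM in the larval forewing and 2599, 1831 and 5036 CPM in the prepupal one. Hindwing levels were 0.298, 3.12 and 1.05 CPM in the larva and 1402, 1198 and 1955 CPM in the prepupa. Larval replicate 2 was again the highest larval library in each wing. This gave a log2 change of 11.60 (SE 1.68, edgeR adjusted p = 1.1e-05) and 9.96 (SE 1.58, adjusted p = 4.7e-05), and 13.42 and 11.13 without larval replicate 2 of the same wing. The model 000073F:598735-606929 had 0.341, 0.596 and 0.0862 CPM in the larval forewing and 1674, 1596 and 2536 CPM in the prepupal one. Its hindwing values were 0.0497, 1.17 and 0.826 CPM, then 574, 486 and 527 CPM. The prepupal libraries lay close together and the larval ones near 1 CPM or below. The log2 change was 12.51 (SE 1.57, edgeR adjusted p = 1.92e-06) and 9.56 (SE 1.40, adjusted p = 1.93e-05), and 13.29 and 10.23 without larval replicate 2 of the same wing.

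Both 000139F:1011519-1012370 and 000139F:1013418-1032649 overlap another model, so their values are uncertain. The longer of the pair had 1.43, 1.92 and 0.172 CPM in the larval forewing and 8325, 7605 and 6843 CPM in the prepupal one. The larval hindwing had 0.0993, 3.70 and 2.98 CPM and the prepupal hindwing 1619.7, 1299 and 456 CPM. Its log2 change was 12.68 (SE 1.61, edgeR adjusted p = 2.35e-06) and 8.95 (SE 1.41, adjusted p = 4.29e-05), and the shorter model's was 12.59 and 8.94. The forewing value of the longer was 13.30 without larval forewing replicate 2, and that of the shorter 13.32 without replicate 1 and 11.95 without replicate 3. The remaining pair was 000178F:690-8255, at 13.34 and 9.01, and 000143F:529976-535920, at 14.14 and 9.17. The second had 3 counts in the 3 larval forewing libraries together and 20150 in the 3 prepupal ones, a ratio of 22500 with an exact 95% interval of 7690 to 109000 that covers counting error only. Its fitted forewing value moved to 16.48 when larval replicate 2 was left out, to 13.35 when larval replicate 3 was, to 12.92 when prepupal replicate 3 was, and to 12.18 with a prior count of 2. That of 000178F:690-8255 moved to 13.95 without larval forewing replicate 1, 12.73 without replicate 3, 12.69 without prepupal forewing replicate 2 and 11.98 with that prior count, and its hindwing value to 9.61 without larval and 8.07 without prepupal hindwing replicate 2.

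The largest gains in level, ranked by the rise in CPM among shared models whose stages did not overlap, were those of 4 models. The difference between the wings was called for none of them (edgeR adjusted p of 0.293 or more). With the replicate block its adjusted p ran from 0.0437 to 0.917. The model 000032F:2595231-2602533 had 16.52, 33.1 and 1.49 CPM in the larval forewing and 83439, 69562 and 67155 CPM in the prepupal one. Levels in the hindwing were 3.13, 49.3 and 43.7 CPM, then 21449.7, 14463 and 13539.8 CPM. The prepupal forewing was above the prepupal hindwing in every library. The fitted log2 change was 12.07 (SE 1.46, edgeR adjusted p = 1.2e-06) in the forewing and 9.01 (SE 1.30, adjusted p = 1.65e-05) in the hindwing, and the forewing value was 12.99 without larval forewing replicate 2. The model 000055F:1363121-1364800 had 12.3, 31.4 and 5.97 CPM and then 47722, 34293 and 47878 CPM in the forewing. In the hindwing it had 3.97, 44.2 and 28.8 CPM, then 17559, 9483 and 9108 CPM. Every prepupal forewing library was again above every prepupal hindwing library. On the log2 scale the change was 11.35 (SE 1.38, edgeR adjusted p = 1.31e-06) and 8.87 (SE 1.26, adjusted p = 1.32e-05), and 12.20 and 9.51 without larval replicate 2 of the same wing.

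For the next pair the prepupal levels of the wings were alike and the larval levels rested on 1 library. The model 000001F:4573274-4597913 had 8.81, 64.7 and 8.30 CPM in the larval forewing and 35085, 39182 and 22255 CPM in the prepupal one. Hindwing levels were 1.64, 77.2 and 15.8 CPM in the larva and 40728, 37844 and 20209 CPM in the prepupa. Larval replicate 2 was the highest larval library in each wing. This gave a log2 change of 10.20 (SE 2.19, edgeR adjusted p = 0.00063) and 10.03 (SE 2.18, adjusted p = 0.000985), and 11.87 and 11.88 without larval replicate 2 of the same wing. The model 000006F:3244980-3253099 had 5.60, 44.0 and 0.661 CPM, then 26469, 23302 and 23895 CPM in the forewing. The larval hindwing had 0.943, 56.6 and 10.3 CPM and the prepupal hindwing 33945, 29186 and 21955 CPM. The prepupal libraries agree within 1.5-fold of each other in the forewing, while the larval ones spread widely. The log2 change was 10.52 (SE 2.23, edgeR adjusted p = 0.000563) and 10.29 (SE 2.21, adjusted p = 0.000901), and 12.96 and 12.29 without larval replicate 2 of the same wing.

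These 4 parted in the late pupa. Their mean levels at 72 h were between 39.5 and 393 CPM. In the late pupa 000055F:1363121-1364800 stood at 9655 CPM in the forewing and 3896 CPM in the hindwing, and 000032F:2595231-2602533 at 5998 and 4850.45 CPM. The other two were at 69.8 and 61.7 CPM in the forewing and at 9.18 and 9.42 CPM in the hindwing. These levels are described and were not tested.

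With TMM scaling, larval wings thus had very little of many models that were abundant in the prepupa, and the reverse was rarer. A mean below 1 CPM in both larval wings and of 10 CPM or more in both prepupal wings was found for 214 of the 2559 models that rose in both. The reverse held for 14 of the 2812 models that fell in both. TMM scaling lifts prepupal CPM relative to larval CPM, and these models were not counted with library totals alone. No count at all in the 6 larval libraries was found for 17 models that rose in both wings, and none in the 6 prepupal libraries for 3 that fell. Low larval counts were not spread evenly over the libraries. Larval replicates 2 had a count for 15935 (forewing) and 16282 (hindwing) models, while the other larval libraries had one for 14397 to 15294. Among the models that rose at least 8-fold in both wings and had any larval count, larval replicate 2 was the highest in 55.1% in the forewing and 55.0% in the hindwing. Without larval replicate 2 of the wing, rises of 32-fold or more numbered 693 in the forewing and 595 in the hindwing, and those of 256-fold or more 284 and 202.

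Large falls were fewer with TMM scaling. The median of the mean log2 CPM was 2.25 over the 235 models that fell at least 8-fold in both wings. Over all tested models it was 3.17. The rule used for the 8 largest rises asks for a mean of 3 or more, so high larval levels among the falls it picks follow from it. The 8 largest falls by the same rule went from a mean of 93.8 to 1679 CPM in the larval forewing to 2.17 to 26.5 CPM in the prepupal one. In the hindwing they went from 88.8 to 2056 CPM down to 0.372 to 8.72 CPM. The log2 change ran from -7.21 to -5.01 in the forewing (SE 0.65 to 1.79, edgeR adjusted p from 1.87e-06 to 0.00251). It ran from -9.79 to -5.97 in the hindwing (SE 0.72 to 1.67, adjusted p from 2.09e-07 to 0.00757). The difference between the wings was called for none of the 8 (edgeR adjusted p from 0.223 to 0.949). With the replicate block its adjusted p ran from 0.000221 to 0.795.

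The model 000053F:1475592-1488722 had 393, 460 and 525 CPM in the larval forewing and 0.581, 14.5 and 0.881 CPM in the prepupal one. Levels in the hindwing were 441, 560 and 541 CPM, then 0.534, 0.970 and 0.187 CPM. Prepupal forewing replicate 2 was above all other prepupal libraries. The fitted log2 change was -6.37 (SE 1.03, edgeR adjusted p = 3.71e-05) in the forewing and -9.79 (SE 1.23, adjusted p = 3.48e-06) in the hindwing, with -9.26 in the forewing without prepupal forewing replicate 2 and -10.54 in the hindwing without prepupal hindwing replicate 2. The model 000143F:829672-834949 had 394, 428 and 388 CPM, then 1.94, 14.1 and 1.32 CPM in the forewing. The hindwing had 384, 413 and 374 CPM, then 2.80, 2.38 and 1.12 CPM. The larval libraries lay within 1.5-fold of each other in both wings. On the log2 scale the change was -6.07 (SE 0.81, edgeR adjusted p = 4.15e-06) and -7.55 (SE 0.88, adjusted p = 1.31e-06), and -7.97 in the forewing without prepupal forewing replicate 2.

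The largest fall in CPM, among shared models whose stages did not overlap, was that of 000116F:193666-199686. It had 2043, 1608 and 1384 CPM in the larval forewing and 9.68, 62.1 and 7.78 CPM in the prepupal one. Its hindwing values were 2267, 2150.5 and 1751 CPM, then 6.81, 8.73 and 10.6 CPM. Here too prepupal forewing replicate 2 was the highest prepupal library. This gave a log2 change of -5.97 (SE 0.80, edgeR adjusted p = 4.2e-06) and -7.88 (SE 0.87, adjusted p = 7.64e-07), and -7.60 in the forewing without that library. The model 000164F:216141-218078 had 96.5, 94.6 and 90.4 CPM in the larval and 2.71, 3.96 and 1.91 CPM in the prepupal forewing. Its hindwing went from 80.9, 97.7 and 87.8 CPM to 0.401, 0.529 and 0.187 CPM. All prepupal values were lower in the hindwing than in the forewing. The log2 change was -5.01 (SE 0.88, edgeR adjusted p = 0.000132) and -7.86 (SE 1.06, adjusted p = 1.4e-05).

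Less even larval levels were found for 000045F:1103342-1106590, with 269, 6.10 and 881 CPM in the larval forewing and 15.7, 81.4 and 797 CPM in the larval hindwing. Its prepupal values were 1.94, 4.18 and 1.47 CPM and 2.40, 4.50 and 7.18 CPM. Its forewing change of -7.21 became -7.80 when larval replicate 2 was left out, -5.73 when larval replicate 3 was and -7.84 when prepupal replicate 2 was. Its change of -5.97 in the hindwing was -3.36 without larval hindwing replicate 3, with an adjusted p of 0.0667 (edgeR), so the hindwing call rests on that library. The other 3 were 000010F:1998440-2006322, at -6.16 and -6.92, 000121F:1429333-1437883, at -5.82 and -6.79, and 000199F:378760-386775, which overlaps another model, at -5.19 and -7.22. Without prepupal forewing replicate 2 their forewing values were -9.95, -7.44 and -5.99. For 000121F:1429333-1437883 the hindwing change became -8.81 when prepupal hindwing replicate 2 was left out. This model was high again at 72 h, at 982 CPM in the forewing and 387 CPM in the hindwing, and at 0.238 and 0.667 CPM in the late pupa.

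Low prepupal counts were also uneven over the libraries. Prepupal replicates 2 had a count for 16174 (forewing) and 16117 (hindwing) models, while the other prepupal libraries had one for 13516 to 14718. Prepupal forewing replicate 2 was the highest of its group in 63.6% of the models that fell at least 8-fold in both wings and had any count there. In the hindwing replicate 2 was the highest in 31.1%. Without prepupal forewing replicate 2 the forewing falls of 32-fold or more numbered 145 in place of 73, and those of 256-fold or more 21 in place of 2.

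Other falls of high level, picked by the fall in CPM among shared models whose stages did not overlap, were smaller in fold and even over the libraries. The model 000076F:1773567-1787246 had 1344, 1138 and 1169 CPM in the larval forewing and 47.4, 73.0 and 48.6 CPM in the prepupal one. In the hindwing it went from 1270, 1168 and 1013 CPM to 47.0, 40.7 and 41.3 CPM. The wings were nearly alike at both stages. The fitted log2 change was -4.43 (SE 0.47, edgeR adjusted p = 2.44e-07) and -4.74 (SE 0.47, adjusted p = 2.33e-07), and the late pupal level was 7232 CPM in the forewing and 8666 CPM in the hindwing. The model 000091F:500315-507328 changed by -3.52 (SE 0.49) and -3.77 (SE 0.49), from 2269, 1483 and 2088 CPM to 155, 147 and 209 CPM in the forewing. The hindwing went from 1639, 1501 and 1630 CPM to 136, 93.9 and 119 CPM. The stages were far apart in both wings, with edgeR adjusted p of 6.25e-06 and 5.15e-06. The model 000019F:2536686-2551372, which overlaps another model, changed by -1.45 (SE 0.20, edgeR adjusted p = 7.64e-06) and -0.99 (SE 0.20, adjusted p = 0.000566).

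With TMM scaling, a part of the models was shown to have changed less than 2-fold. The 95% interval of the log2 change lay between -1 and 1 in both wings for 1961 models (14.8% of tested), and in the forewing and hindwing taken singly for 2369 and 3211. Of the 1961, 192 were nonetheless called in both wings, so a call and a small change are not exclusive. The model of highest level among them was 000105F:377520-379220, at 14286, 14592 and 12839.8 CPM in the larval and 12805, 12939 and 11981 CPM in the prepupal forewing. Hindwing levels were 11614, 14106 and 11449.7 CPM in the larva and 17029, 16467 and 14108 CPM in the prepupa. The forewing values of the stages overlapped, and the log2 change was -0.15 (SE 0.23, edgeR adjusted p = 0.609) and 0.36 (SE 0.23, adjusted p = 0.212). The next were 000115F:851400-870770, with log2 changes of 0.37 and 0.18, 000062F:1499420-1505484, with 0.40 and 0.43, and 000103F:1103722-1106626, with 0.56 and 0.57. The last was called in both wings (edgeR adjusted p = 0.015 and 0.0174), and its call was lost without any of 3 libraries in the forewing and any of 3 in the hindwing (adjusted p from 0.0501 to 0.102). These small values depend on the scaling: with library totals alone the last 3 had log2 changes of -1.13, -1.10 and -0.94 in the forewing. As shares of the counts, the 1961 models held 26.2% to 26.8% in larval forewing libraries and 9.7% to 10.2% in prepupal ones. In the hindwing their share was 26.1% to 26.5% in the larva and 13.1% to 14.6% in the prepupa. The set was not counted again with another scaling.

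The wings differed in the size of the step more than in its direction. The change of the hindwing minus that of the forewing was called for 428 models (3.22% of tested), 217 above 0 (1.63%) and 211 below (1.59%). This split depends on the scaling and the tool, with 809 above and 83 below for library totals alone and 358 and 535 for the DESeq2 Wald test. The change was the larger in size in the forewing for 387 of these and in the hindwing for 41. With the replicate number of each stage as a block, which pairs the wings, 2387 were called (18.0%), 1930 larger in the forewing and 457 in the hindwing, and 426 of the 428 were among them. Of the 5371 models that changed in both wings in the same direction, 277 were called as different in size, 260 of them larger in the forewing, and 1189 with the block, 1028 of them larger in the forewing. Of all 5371, 3748 (69.8%) had the larger fitted change in the forewing, and this share ran from 63.2% to 75.5% when single libraries were left out. The TMM factors of the prepupal forewing and hindwing also differed, at 0.590 and 0.870. The share was 82.5% with library totals alone and 69.6% with DESeq2 size factors. Without prepupal forewing replicate 1, the library whose loss moved the count most, 250 models were called, and without larval forewing replicates 1 and 3, larval hindwing replicates 1 and 2 and prepupal hindwing replicate 3 in turn 273, 255, 275, 261 and 263 were.

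**Figure D4:**
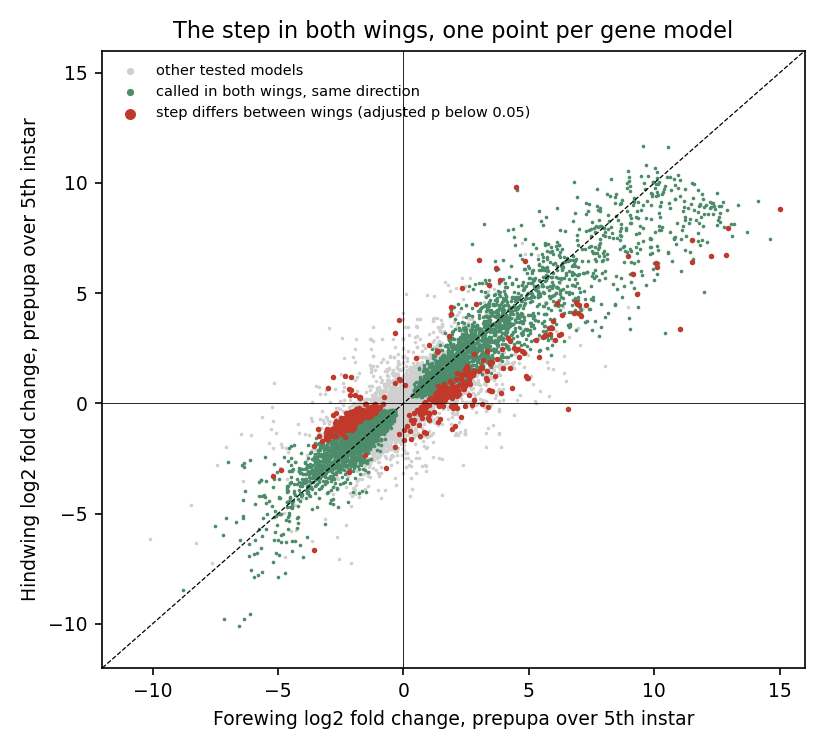
Each point is a tested model, with its log2 fold change in the forewing on the horizontal and in the hindwing on the vertical axis. Green points were called the same way in each wing, red points differ between the wings without the block, and the dashed line marks equal change. Of the 428 red points 387 have the larger change in the forewing.

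A call in 1 wing alone does not show a difference between the wings. Over all tested models the difference was called for 3.22%, and for 18.0% with the block. Of the 2031 models called in the forewing alone, the difference was called for 116, and for 717 with the block. Of the 699 called in the hindwing alone it was called for 21, and for 156 with the block. The clearest change of the hindwing without one in the forewing was that of 000135F:1082727-1083726. It had 13.4, 9.21 and 11.9 CPM in the larval and 9.87, 9.11 and 11.9 CPM in the prepupal forewing. In the hindwing it went from 18.5, 15.03 and 17.2 CPM to 301, 137 and 264 CPM. The prepupal hindwing stood alone above the other 3 groups. On the log2 scale the change was -0.16 (SE 0.41, edgeR adjusted p = 0.754) in the forewing and 3.79 (SE 0.44, adjusted p = 1.29e-06) in the hindwing, and the difference was 3.95 (SE 0.59, adjusted p = 0.00111).

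A pair of neighbours on contig 000190F changed far more in the forewing. The first, 000190F:930566-936474, had 6.21, 7.79 and 5.49 CPM in the larval and 230, 237 and 124 CPM in the prepupal forewing. The larval hindwing had 8.04, 10.98 and 7.22 CPM and the prepupal hindwing 22.6, 24.6 and 11.8 CPM. The second, 000190F:937882-939964, had 2.66, 4.63 and 3.47 CPM, then 116, 145 and 75.2 CPM in the forewing, and 4.77, 6.50 and 3.80 CPM, then 11.3, 15.8 and 6.81 CPM in the hindwing. In both the prepupal forewing was above every other library. The log2 change of the first was 4.92 (SE 0.55, edgeR adjusted p = 4.47e-07) in the forewing and 1.16 (SE 0.48, adjusted p = 0.0536) in the hindwing. That of the second was 4.95 (SE 0.47, edgeR adjusted p = 7.2e-08) and 1.17 (SE 0.42, adjusted p = 0.028), the latter lost without any of 4 hindwing libraries (adjusted p from 0.0591 to 0.155). The differences were -3.76 (SE 0.68, adjusted p = 0.00415) and -3.79 (SE 0.60, adjusted p = 0.00175). Both were below 0.5 CPM in each wing in the pupal libraries, at 72 h and late.

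The model 000160F:521464-530252 rose in both wings and by more in the forewing. It had 3.07, 6.55 and 0.948 CPM in the larval and 11363, 6878 and 12766 CPM in the prepupal forewing. Levels in the hindwing were 2.53, 10.3 and 16.2 CPM, then 2207, 1447 and 1278 CPM. The prepupal forewing exceeded the prepupal hindwing in every library. This gave a log2 change of 11.52 (SE 1.06) and 7.41 (SE 0.90), and the difference of -4.11 (SE 1.01, edgeR adjusted p = 0.0288) was lost without any of 8 single libraries (adjusted p from 0.0603 to 0.0911). With the block its adjusted p was 0.00398.

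Opposite directions were called for 14 models, 11 up in the forewing and down in the hindwing and 3 the reverse, and the difference was called for all 14 with and without the block. The model 000165F:641771-651979 had 43.4, 41.5 and 39.2 CPM in the larval and 5.61, 5.68 and 6.46 CPM in the prepupal forewing. The hindwing had 48.4, 49.7 and 38.8 CPM, then 81.4, 83.0 and 154 CPM. The larval wings were alike and the prepupal wings lay on either side of them. The log2 change was -2.80 (SE 0.25, edgeR adjusted p = 3.86e-08) in the forewing and 1.22 (SE 0.23, adjusted p = 0.00031) in the hindwing, a difference of 4.02 (SE 0.34, adjusted p = 7.24e-06). The model 000018F:2242520-2256445 had 35.1, 30.6 and 33.9 CPM, then 6.19, 6.86 and 6.75 CPM in the forewing. Hindwing levels were 39.7, 40.1 and 37.9 CPM in the larva and 121, 75.2 and 86.2 CPM in the prepupa. Its values followed the same order over the groups. The fitted log2 change was -2.33 (SE 0.28, edgeR adjusted p = 1.27e-06) and 1.26 (SE 0.26, adjusted p = 0.000679), a difference of 3.59 (SE 0.38, adjusted p = 4.36e-05). The opposite call of these models was lost with library totals alone, where the hindwing values were 0.25 (edgeR adjusted p = 0.394) and 0.24 (adjusted p = 0.514).

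In the reverse sense, 000072F:1938006-1956473 had 70.9, 65.9 and 72.7 CPM in the larval and 126, 135 and 130.2 CPM in the prepupal forewing. The larval hindwing had 64.3, 66.2 and 68.7 CPM and the prepupal hindwing 27.0, 30.4 and 20.6 CPM. Larval wings were again alike, and no prepupal library overlapped them. On the log2 scale the change was 0.90 (SE 0.15, edgeR adjusted p = 6.3e-05) and -1.35 (SE 0.16, adjusted p = 1.21e-06), a difference of -2.26 (SE 0.22, adjusted p = 2.64e-05), and with library totals alone the forewing change was -0.59 (adjusted p = 0.00328), a fall in each wing. The model 000022F:1347903-1348205, a span of 303 bases, had 21.8, 24.4 and 24.3 CPM, then 94.5, 96.9 and 77.4 CPM in the forewing. Levels in the hindwing were 16.7, 21.1 and 18.0 CPM, then 10.01, 8.99 and 6.25 CPM. This gave a log2 change of 1.93 (SE 0.39, edgeR adjusted p = 0.000397) and -1.15 (SE 0.40, adjusted p = 0.0237), a difference of -3.07 (SE 0.56, adjusted p = 0.00402). Its hindwing call was lost without larval hindwing replicate 2 (adjusted p = 0.0686) or prepupal hindwing replicate 3 (adjusted p = 0.0955). Its forewing call was lost with library totals alone, at 0.43 (adjusted p = 0.324).

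Rising models lay next to each other on the contigs more often than their overall share. The next tested model had also risen in both wings for 40.9% of the rising models, against 19.3% of all tested models, and had also fallen for 36.5% of the falling models, against 21.4% over all neighbour pairs. The share was higher relative to its base for large changes: 40.9% against 7.21% for rises of 8-fold or more, and 12.8% against 1.77% for falls of 8-fold or more. Without the models whose spans overlap another, the shares were 41.1%, 35.4%, 38.2% and 12.7%. These shares are a description, since neighbouring models are not independent. Runs of 3 or more consecutive rises of 8-fold or more numbered 73 and held 310 of the 965 such models (32.1%). There were 3 such runs of falls, with 10 of 235 models (4.26%).

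Of runs of models called as rising in both wings, the longest lay on contig 000019F, with 18 models from position 1811349 to 1956194. Of the 18 models 2 overlap another model, and all 18 rose at least 8-fold in both wings. Their summed level was 56.7, 92.3 and 73.98 CPM in the larval forewing and 11734, 8585.5 and 18474 CPM in the prepupal one. In the hindwing the sum was 20.6, 63.9 and 56.8 CPM, then 15643, 9926 and 12803 CPM. The wings reached like levels, and the median log2 change over the 18 models was 9.77 in the forewing and 9.43 in the hindwing. The 5 tested models just before the run had log2 changes between -2.14 and 0.55. After the run came a model with 2.87 in the forewing and 1.38 in the hindwing, which was not called there, and then 3 further models with 12.6, 12.9 and 7.22 in the forewing and 8.24, 8.77 and 7.01 in the hindwing. The second of these 3 is 000019F:2004960-2006024. At 72 h the run was back at 87.6 ± 51.4 CPM in the forewing and 74.4 ± 56.6 CPM in the hindwing, and in the late pupa it stood at 31006 ± 3402 and 20986 ± 5813 CPM. Many of these models span about 1000 bases, which is short beside the median span of 6181 bases over all tested models, and near-identical copies could not be marked.

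The run on contig 000001F held 16 models from 4519530 to 4702936 and contained 000001F:4573274-4597913. Of the 16 models 6 overlap another model, so the sums over this run are uncertain. Without models of overlapping spans the run there held 11 models, from 4519530 to 4709511. Its summed level was 84.7, 140.0 and 21.1 CPM in the larval forewing and 150413, 164104 and 86533 CPM in the prepupal one. In the hindwing the sum was 46.6, 180.6 and 62.3 CPM, then 83425, 86858 and 27278 CPM. Prepupal replicate 3 was the lowest in each wing, and the median log2 change was 10.2 and 8.06. At 72 h the sum was 1376, 356 and 14.6 CPM in the forewing and 1172, 376 and 70.1 CPM in the hindwing, a wide spread with replicate 1 the highest in both wings. In the late pupa it was 251.6 ± 268.6 and 108 ± 87.6 CPM.

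The run on contig 000051F held 12 models from 181669 to 311422. Its sum was 7.58, 13.4 and 0.488 CPM in the larval forewing and 32236, 24270.0 and 18154 CPM in the prepupal one. In the hindwing it was 0.993, 19.9 and 15.98 CPM, then 7363, 4204 and 2376 CPM. The median log2 change was 11.5 and 7.32, and the forewing change was the larger in 11 of the 12 models, with the difference called for 1 of them and for 4 with the block. The forewing change was also the larger in 14 of the 16 models on contig 000001F and in 12 of the 18 on contig 000019F. In those runs the difference was called for none without the block, and for 5 and 4 models with it. The run on contig 000215F, 11 models from 244362 to 427563 of which 1 overlaps another model, differed in kind. Its sum was 357, 562 and 391.8 CPM in the larval forewing and 3758, 6432 and 8415 CPM in the prepupal one. In the hindwing it was 476, 640.0 and 402 CPM, then 4949, 9299.5 and 7493 CPM. Its rises were lower and more even, with a median log2 change of 4.04 and 4.03, and the difference between the wings was called for none of its models with or without the block. In each of these 4 runs larval replicate 2 had the highest larval sum in both wings.

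**Figure D5:**
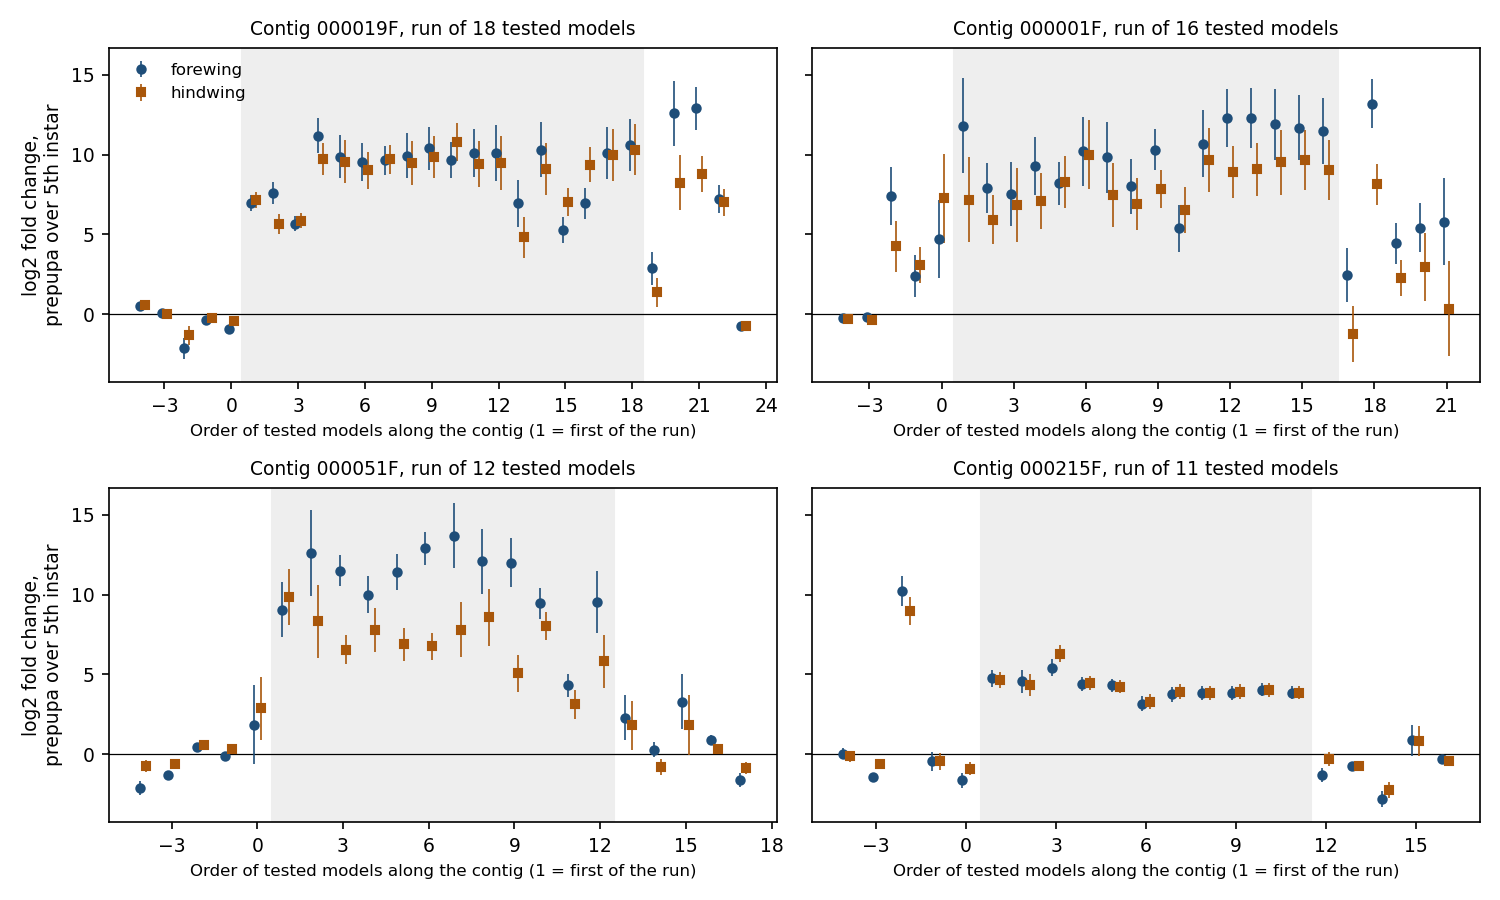
Log2 fold change with SE of consecutive tested models along 4 contigs, in order of position, for the forewing (circles) and the hindwing (squares). Shading marks the runs of 18, 16, 12 and 11 models that rose in both wings, and the models outside it are their neighbours. The median change of the run on contig 000215F is 4.04 in the forewing, against 9.77 on contig 000019F.

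Falling models formed runs of at most 9. One lay on contig 000063F and one on contig 000132F, and most of their falls were moderate. Over the 9 models on contig 000063F the median fold was 4.51 in the forewing and 2.50 in the hindwing, and over those on contig 000132F it was 2.42 and 1.91. A fall of more than 2-fold was shown for 7 models of the first run in the forewing and 3 in the hindwing, and for 4 and 2 of the second. The first run, from position 413104 to 587846, ended with 000063F:581512-587846, at -4.90 in the forewing and -5.97 in the hindwing. Without prepupal forewing replicate 2 its forewing change was -10.94. The second run went from 1231837 to 1362309. There the forewing call of 000132F:1251213-1255049, a change of -0.80, was lost in several alternatives, DESeq2's Wald test among them (adjusted p = 0.0604). Its hindwing call was lost with the 6 libraries of that wing (edgeR adjusted p = 0.0582). The forewing call of 000132F:1350035-1362309 was lost with DESeq2 size factors (edgeR adjusted p = 0.0776) and by DESeq2's Wald test (adjusted p = 0.0506). In the first run the hindwing call of 000063F:413104-424084 was lost without larval hindwing replicate 1 or prepupal hindwing replicate 2 (edgeR adjusted p = 0.0525 and 0.0763).

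Rising and falling models were alike in span. The median span was 6983 bases for models that rose in both wings, 6109 for those that fell and 6181 over all tested models. For rises of 32-fold or more it was 5796. A mean log2 CPM of 9 or more over the 12 libraries was found for 167 models, of which 98 rose and 9 fell in both wings. Between 3 and 6 there were 5237 models, of which 954 rose and 1430 fell. Levels and directions in these classes are those of TMM scaling, and the classes were not counted again with another scaling. The larval libraries also varied less within their groups, with a median SD of log2 CPM of 0.223 in both wings, and 0.323 and 0.319 for prepupal forewings and hindwings.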

How the data were processed

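The authors deposited raw counts of reads per gene model for 24 wing libraries, whole numbers without normalization; the columns headed d3 were taken as the 72 h stage, and every sample column was used. TopHat, bedtools and DESeq2 are listed, without versions or roles, per the submitters' processing notes. Strand use and genome build: not given in the sources used here. In 3767 models the span overlaps another model, and 4 coordinate pairs are listed again. Models were filtered with filterByExpr (minimum count 10, minimum total 15) and scaled by TMM in edgeR 4.0.16 (R 4.3.3, limma 3.58.1). A quasi-likelihood model with a mean for each of 8 groups was fitted to all 24 libraries (common biological coefficient of variation 38.7%), with two-sided contrasts for each wing and for their difference, and glmTreat at a log2 threshold of 1. SE is the absolute log2 change divided by the square root of F. Steady models have a 95% interval inside -1 and 1. On simulated counts with known changes, all models drawn at that common coefficient of variation, the fit called 8-fold changes in each wing but few 2-fold changes. In the data the SE differed with level and changes below 2-fold were called. The simulation thus does not give the share of 2-fold changes found here. DESeq2 1.42.0 was an alternative, besides other scalings, filters, sample sets, prior counts and single libraries left out.

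Named models were the 8 largest shared rises and falls by mean log2 change (mean log2 CPM of 3 or more, no overlap). The 4 largest shared rises and falls by CPM (no overlap), the largest wing differences and the 4 steady models of highest CPM were also named. So were models nearest the median and the longest runs. The runs on contigs 000001F, 000051F and 000215F were added after their values were seen. Members and lists were chosen with earlier results of these data known. Within a stage, deviations of log2 CPM correlated between same-numbered forewing and hindwing libraries (r from 0.517 to 0.765 in 6 pairs; other numbers -0.443 to -0.138), so the numbers pair the wings. The late pupal libraries are labelled day 6 in one field and d7 in another. No gene name, genome or sequence was used.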

Additional observations from a re-analysis of the deposited data

Results flagged for a closer look

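A difference between the wings in the step, by the test of the difference itself, was found for 428 models without the replicate block. With the block, which pairs the wings, it was found for 2387 (18.0% of tested). Of the 428, 14 were called in opposite directions, and 260 changed the same way in both wings and by more in the forewing. The 8 models named here were picked for a large difference or opposite directions and do not represent the 428. Their hindwing minus forewing values are given on the log2 scale. The forewing changed by more in 000190F:930566-936474 (-3.76), 000190F:937882-939964 (-3.79) and 000160F:521464-530252 (-4.11, a call lost without any of 8 single libraries). The hindwing value was above the forewing value in 000135F:1082727-1083726 (3.95), 000165F:641771-651979 (4.02) and 000018F:2242520-2256445 (3.59). The forewing rose and the hindwing fell in 000072F:1938006-1956473 (-2.26) and 000022F:1347903-1348205 (-3.07). The first and second are neighbours.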

How the results depend on the processing

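Library totals alone in place of TMM gave 9261 calls in the hindwing, 8703 shared, 7905 and 5517 beyond 2-fold, 892 wing differences, and a median absolute log2 change of 1.94 in the forewing and 1.43 in the hindwing. They also turned the sign of 8 values of named models: 000072F:1938006-1956473 forewing -0.59, 000105F:377520-379220 hindwing -0.66, 000115F:851400-870770 forewing -1.13 and hindwing -0.84, 000062F:1499420-1505484 forewing -1.10 and hindwing -0.59, and 000103F:1103722-1106626 forewing -0.94 and hindwing -0.45. The medians of size were otherwise 1.01 and 0.740 with 12 libraries, 1.003 and 0.721 with the 6 of one wing, 1.18 and 0.901 without a filter, 0.977 and 0.738 with a prior count of 2, and in the hindwing 0.769 by DESeq2's Wald test and 0.771 with its size factors. Wing differences numbered 826 with 12 libraries and 893 by the Wald test, and steady models 402 with a 1.5-fold limit. Leaving out single libraries gave 6680 to 7402 forewing and 5243 to 6098 hindwing calls, 4716 to 5129 shared, 3342 to 3733 and 2264 to 2596 beyond 2-fold, 250 to 377 wing differences, and medians of size of 1.07 to 1.14 and 0.818 to 0.855. For the causes of these shifts, beyond fewer libraries or models, the cause was not tested. Of the shared calls, 74.7% to 99.5% were kept in the same direction in each alternative. Of 3150 values of 75 named models under alternatives, 3072 kept direction and side of the threshold, 50 lost and 20 gained a call, and 8 changed sign. Counting depth limits the size of rises from near 0.

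With the replicate number as a block, 2387 wing differences were called. Between the stages the numbers pair nothing in the labels, and same-numbered libraries of a wing correlated from -0.0993 to 0.0847, with 5 of 12 libraries closest to their own number. That replicate block gave 7610 forewing, 6419 hindwing and 5664 shared calls.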

Other observations

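Among the 14 models called in opposite directions, 2 pairs lay close together on a contig, which was seen after their values. On contig 000018F the model 000018F:2273085-2282022 changed by -2.07 in the forewing and 1.20 in the hindwing, beside 000018F:2242520-2256445. On contig 000005F the models 000005F:395700-402568 and 000005F:408665-418433 changed by 1.45 and 1.39 in the forewing and by -0.71 and -0.84 in the hindwing.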
